A study of Mus musculus with 8 samples.

Results

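The nuclear genes for subunits of the mitochondrial respiratory chain and ATP synthase were described in sciatic nerve of mice aged 30 days. Members were the rows of the deposited table whose symbols begin with the stems Nduf (letters a, b, c, s or v and a number), Sdh, Uqcr, Cox (numbers 4 to 8) or Atp5, and whose FPKM averaged 1 or more over all 8 libraries. Of 84 rows that match these stems, 82 passed, out of 23356 rows in all. They comprise 35 genes for complex I, 4 for complex II, 8 for complex III, 18 for complex IV and 17 for complex V, the ATP synthase. The 2 rows left out were Cox7b2 and Cox8c, both listed at 0 in every library, and the members closest above the limit were Cox6a2 at a mean of 1.30 FPKM and Cox4i2 at 1.31. The rule used the mean level over all libraries. Cox6a2 passed only through the Q215X/+ library of set 1, since its mean over the other 7 libraries was 0.251 FPKM, so its differences that involve Q215X/+ are a description. No other member depended on a single library for its place.

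The mice were of the F1 C57BL/6;FVB/N strain, and poly A selected RNA of the nerve was sequenced. Wild type mice (WT) were compared with Q215X/+ mice, called the mutant, which carry the Q215X allele on 1 chromosome copy. The other 2 groups were HA-NRG1 type III/+ mice, called transgenic, whose transgene encodes HA-tagged type III neuregulin 1, a signal from axons to Schwann cells, and HA-NRG1 type III/+:Q215X/+ mice, called the double here. The promoter of the transgene and the number of animals behind a library are not stated in the labels, so the p-values below measure only the spread between libraries, which may be technical. Each genotype has 2 libraries, whose columns end in 0 or 1. These endings are called set 0 and set 1, no label ties them to a replicate number, and the column stem for the transgene was assigned to HA-NRG1 type III/+ as the genotype that no other stem names.

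The respiratory chain passes electrons from NADH through complex I, or from succinate through complex II, to ubiquinone, then through complex III and cytochrome c to complex IV, which reduces oxygen. Complexes I, III and IV pump protons across the inner membrane, and complex V uses the proton gradient to make ATP. Most subunits are encoded in the nucleus, with a few core subunits of complexes I, III, IV and V encoded by mitochondrial DNA. In nerve, mitochondria lie in axons, whose mRNA is made mostly in cell bodies outside the nerve, and in Schwann cells and the other cells of the tissue. Some complex IV subunits exist in pairs, with 1 form in most tissues and another in heart, skeletal muscle or brown fat, such as Cox8a and Cox8b, Cox7a2 and Cox7a1, or Cox6a1 and Cox6a2.

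The promoters of 2 such pairs are shown because the results below turn on Cox8b and set it beside its widely expressed partner, with Cox7a1 as the other tissue-restricted form expressed at a sizeable level here. They are the RefSeq windows from 250 bases before to 50 after the annotated start in GRCm38.p6, written 5′ to 3′ on the gene's strand. Capitals mark matches on either strand to the words TATAAA (the core of a TATA box), CCGGAA (ETS factors), TGCGCA (the core of the NRF1 site), CAGCTG (an E-box) and AAGGTCA (the estrogen-related receptor half-site), none of which overlap in these windows. Cox8b lies at chr7:140900397-140900696, Cox8a at chr19:7217567-7217866 and Cox7a2 at chr9:79759804-79760103, all on the minus strand, and Cox7a1 at chr7:30183921-30184220 on the plus strand.
Cox8b: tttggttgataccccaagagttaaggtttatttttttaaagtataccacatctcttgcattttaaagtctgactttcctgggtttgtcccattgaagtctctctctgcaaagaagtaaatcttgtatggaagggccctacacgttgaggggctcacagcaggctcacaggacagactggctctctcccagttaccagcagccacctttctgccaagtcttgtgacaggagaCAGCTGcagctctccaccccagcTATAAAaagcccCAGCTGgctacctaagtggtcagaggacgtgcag
Cox8a: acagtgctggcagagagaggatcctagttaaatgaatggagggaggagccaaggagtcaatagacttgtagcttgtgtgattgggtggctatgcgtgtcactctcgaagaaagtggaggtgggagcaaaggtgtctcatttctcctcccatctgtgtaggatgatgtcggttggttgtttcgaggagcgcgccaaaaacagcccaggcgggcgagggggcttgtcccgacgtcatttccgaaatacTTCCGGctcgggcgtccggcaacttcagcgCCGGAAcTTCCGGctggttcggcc
Cox7a1: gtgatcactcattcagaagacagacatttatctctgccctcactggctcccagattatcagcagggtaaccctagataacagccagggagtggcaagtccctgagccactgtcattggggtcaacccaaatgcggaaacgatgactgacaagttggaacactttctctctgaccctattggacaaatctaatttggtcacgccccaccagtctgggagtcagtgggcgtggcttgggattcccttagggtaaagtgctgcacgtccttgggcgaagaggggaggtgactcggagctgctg
Cox7a2: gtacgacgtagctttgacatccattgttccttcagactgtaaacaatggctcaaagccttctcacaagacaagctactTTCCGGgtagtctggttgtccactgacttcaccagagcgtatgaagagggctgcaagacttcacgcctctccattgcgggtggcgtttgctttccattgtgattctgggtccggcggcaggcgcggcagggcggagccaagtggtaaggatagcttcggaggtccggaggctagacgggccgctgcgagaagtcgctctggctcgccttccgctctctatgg
The Cox8b window held TATAAA once and CAGCTG at 2 places, the Cox8a window held CCGGAA (or its reverse complement TTCCGG) at 3 places, the Cox7a2 window held it once, and the Cox7a1 window held none of the 5 words. Windows were found for 68 of the 82 members, 74 windows in all. CCGGAA was in 36.5% of them, against 14.9% of all 32851 windows of the same length, and TGCGCA in 25.7% against 7.76%. AAGGTCA was in 10.8% against 4.72%, TATAAA in 9.46% against 13.6%, and CAGCTG in 8.11% against 16.3%. Such matches describe letters and not binding.

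The respiratory chain genes were among the more abundant transcripts of the nerve. The median member had a mean of 92.3 FPKM, a level normalised to transcript length, against 10.4 FPKM for the median of all 12530 genes that averaged 1 FPKM or more, and 74 of 82 members lay above that median. Together the members held 1.88% to 2.53% of the total FPKM of a library. Complex V had the highest median level at 144 FPKM, followed by complex III at 130.2, complex IV at 113, complex II at 81.0 and complex I at 75.8. The ranges over libraries of neighbours in this order overlapped, apart from complexes IV and II, at 132 to 179 FPKM for complex V, 102 to 168 for complex III, 94.0 to 134 for complex IV, 72.2 to 91.3 for complex II and 62.9 to 94.5 for complex I. Within a library, complex V was above complex III in 8 of 8, and complex II above complex I in 6 of 8.

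**Figure D1:**
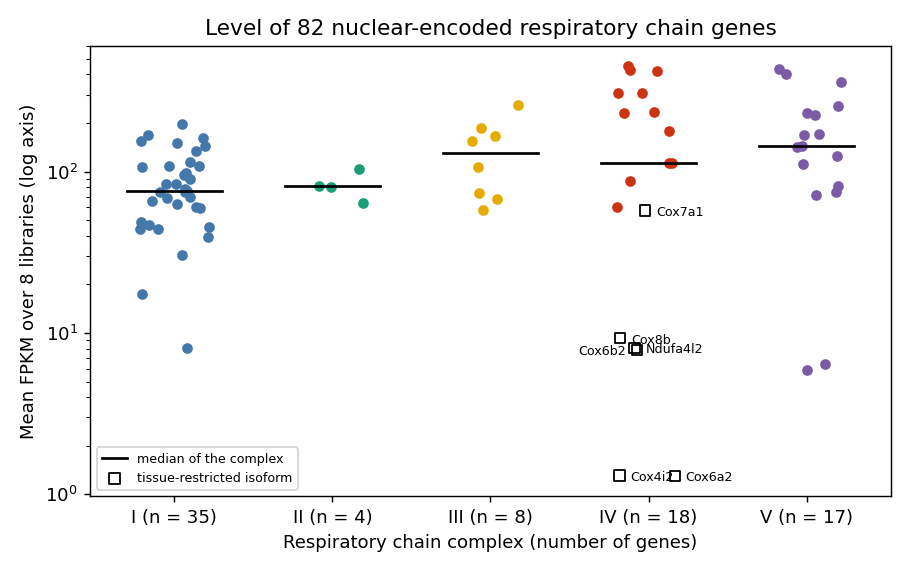
Mean FPKM over 8 libraries (log axis) of each of the 82 genes, by complex; black lines are medians of the complexes and open squares are tissue-restricted isoforms. Complex V has the highest median (144 FPKM), and 5 of the 6 squares lie below 10 FPKM, with Cox7a1 near 58.

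Within complexes, levels spanned a wide range. In complex I the highest mean was that of Ndufa3, an accessory subunit, at 196 FPKM, and the lowest that of Ndufs5, also accessory, at 8.04. The core subunits Ndufs1, which carries iron-sulphur clusters, and Ndufv1, which binds NADH, had 30.3 and 46.4 FPKM. In complex II, Sdhc, a membrane anchor, was highest at 104 FPKM and Sdhd, the other anchor, lowest at 64.0, with the catalytic pair Sdha and Sdhb at 81.3 and 80.7. In complex III, Uqcrh, the hinge protein, was highest at 260 FPKM and Uqcrfs1, the Rieske iron-sulphur protein, lowest at 57.9, with the core protein Uqcrc1 at 67.7. In complex IV the highest was Cox8a at 448 FPKM and the lowest Cox6a2 at 1.30, and the subunit Cox5a had 113. In complex V, Atp5e, the epsilon subunit, was highest at 433 FPKM, with the catalytic subunit Atp5b at 403 and its partner Atp5a1 at 170.2. The lowest was Atp5sl at 5.94, now known as an assembly factor of complex I, next to Atp5s at 6.46.

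Total FPKM ran from 443733 to 530901, and the depths of the libraries relative to WT set 0, read from steps between low values, were 0.727 to 1.08. By Xist and Ddx3y, the WT and double libraries were female, the Q215X/+ libraries male, and those of transgenic nerve male in set 0 and female in set 1, so where Q215X/+ is set beside WT or the double, sex and genotype cannot be told apart. Transgenic nerve shared the sex of WT and of the double in set 1 but not in set 0. All 7 Schwann cell and myelin markers checked were present in each library. In bulk nerve, fewer cells of a type and less RNA per cell cannot be told apart. Of the 82 members, 5 (Atp5h, Atp5l, Atp5o, Ndufa12 and Ndufs3) have near-identical copies in the transcript annotation, all outside the table, so reads may be split between copy and gene.

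The main difference among the libraries in these genes lay between the sets and not between genotypes. Set 1 was above set 0 in the mean of the 4 genotypes for 78 of 82 members (95.1%), against 56.8% of all genes tested, and in each of the 4 genotypes for 72 members (87.8% against 31.5%). The median difference was 0.41 on the scale of log2(FPKM + 1) for members and 0.033 for all genes. By genotype the members' median was 0.46 in WT, 0.42 in the mutant, 0.29 in transgenic nerve and 0.36 in the double. Cox7c, a small structural subunit of complex IV, had the largest difference in that direction at 0.91, with 215.3 and 436 FPKM in WT, 221 and 445 in the mutant, 208 and 355 in transgenic nerve and 206 and 368 in the double. Every set 1 library of Cox7c stood above every set 0 library. Cox7c is named here after its values were seen.

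The set difference went with transcript length. Across the 82 members Spearman's rho between the set difference and the length was −0.56 (Pearson's r with log2 length −0.37). Across the 12442 genes tested with a known length it was −0.55 (r = −0.44). The genes share the same 8 libraries, so this is a description. Members of up to 500 nucleotides had a median set difference of 0.61 (n = 8), those above 2500 one of 0.15 (n = 4), and all genes tested had 0.59 and −0.039 in the same classes. Among transcripts annotated as longer, Atp5a1 (0.07), Sdha (0.11) and Atp5b (0.12) had small set differences. Ndufb2, at an annotated 2413 nucleotides, had 0.89, the second highest of the members, and Ndufs4, at 1698, had 0.52. Lengths are medians over the annotated transcripts of a gene and may differ from the form expressed here. Ndufs4 is named after its values were seen. In complex I the 7 core subunits, with a median length of 1312 nucleotides, had a median set difference of 0.26, and the 28 accessory subunits, with 718, had 0.48. The members' median length was 772.5 nucleotides and that of all genes with a length 2804. The part of length in the set difference was not tested.

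**Figure D2:**
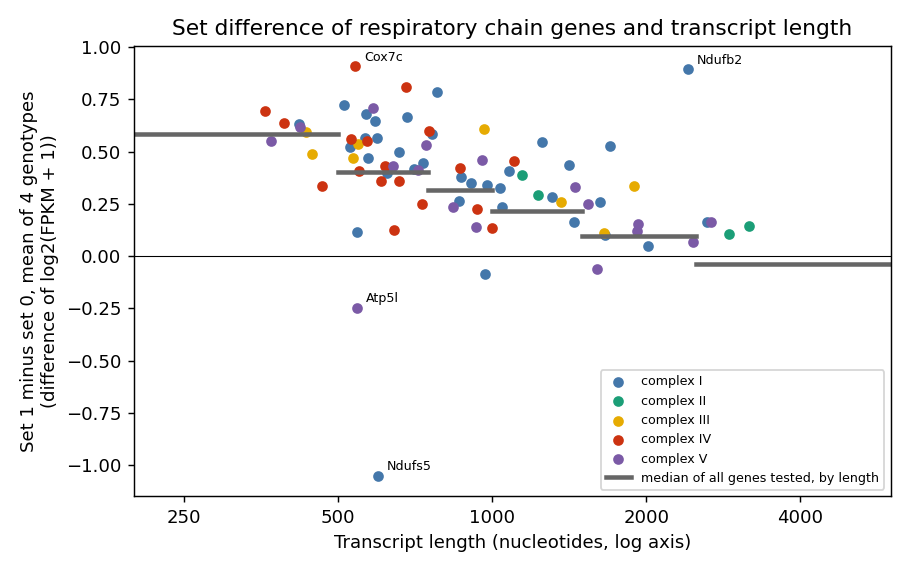
Set 1 minus set 0, mean of 4 genotypes, in log2(FPKM + 1), against transcript length (log axis) for each member, coloured by complex; grey lines are medians of all genes tested in 6 length classes. Most members lie above 0, short ones highest, with Ndufs5 at −1.05 as the lowest.

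The other 4 members went the opposite way: Ndufs5 (−1.05), Atp5l (−0.25), Ndufb4 (−0.084) and Atp5f1 (−0.062), the last 3 named after their values were seen. Ndufs5 had 10.7 and 10.1 FPKM in WT, 9.69 and 3.39 in the mutant, 11.3 and 6.02 in transgenic nerve and 11.2 and 1.98 in the double. Its set 0 levels lay between 9.69 and 11.3 FPKM in the 4 genotypes while its set 1 levels spread 5.1-fold from the double to WT. Atp5l, a membrane subunit of complex V, was lower in set 1 in every genotype, with 104 and 79.6 FPKM in the mutant and 83.3 and 76.4 in WT.

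Differences between genotypes were smaller than the set difference for nearly all members. The median absolute set difference was 0.41, and the median absolute genotype difference 0.034 to 0.090 over the 7 comparisons. The set difference was the larger in 74 to 82 of 82 members. The tests below are limma tests on log2(FPKM + 1), with a spread estimated over all 8 libraries and Benjamini-Hochberg adjusted p over all 12530 genes, and a call is an adjusted p under 0.05. No member was called in any of the 7 comparisons, which share libraries with each other. With the set as a replicate block, which takes out the mean difference between set 0 and set 1, Cox8b alone was called, in 2 comparisons. Without the block the set difference counts as spread, and it also widens the groups compared for overlap. Its median absolute size was 0.41 for members against 0.13 for all genes. Shares of members without the block, or by overlap of groups, are therefore not like for like with those of all genes. Members share the same 8 libraries and are not separate observations. Shares of members higher or lower in both sets are therefore a description. The exact permutation test of 2 against 2 libraries cannot give a two-sided p below 0.333 and was not used.

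In Q215X/+ against WT, most respiratory chain genes stood slightly higher in the mutant nerve, by amounts within the spread between libraries. The median member difference was 0.050 (0.054 in set 0 and 0.059 in set 1) beside −0.0055 over all genes, and 58 of 82 members were above 0. Higher in both sets were 39 members (47.6%), against 23.4% of all genes, and lower in both sets were 9 (11%), against 26.7%. By complex the medians were 0.048 for complex I, 0.021 for II, 0.084 for III, 0.055 for IV and 0.042 for V. In complex III, 7 of 8 genes were above 0. No member was called (background 0.00798% of genes, with or without the block), and 1 of 82 had an unadjusted p under 0.05, against 2.04% of all genes. With the block this was so for 10 members (12.2%), 6 higher and 4 lower, against 7.41%. The Q215X/+ libraries also held markers of other tissues: skeletal muscle markers summed to 1242 FPKM in set 1, against 33.7 in WT of that set, brown adipocyte markers to 14.8 in set 0, against 3.87, and red blood cell markers to 599 and 1279, against 239 and 244. Their part in the members' difference was not tested.

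The genes at both ends of this comparison were isoforms and accessory subunits. Cox8b had 4.97 and 6.08 FPKM in WT and 17.8 and 21.8 in the mutant. Both mutant libraries stood above both WT libraries, and the log2 difference was 1.67 ± 0.46 (SE, limma adjusted p = 1, and 0.252 with the block). Cox6a2 had 0.649 and 0.358 FPKM in WT and 0.140 and 8.68 in the mutant, so its difference of 1.15 came from a single mutant library. Cox7a1 had 38.2 and 66.0 FPKM in WT and 47.7 and 81.8 in the mutant, 0.31 higher in each set (0.31 and 0.30), with overlapping groups. At the low end were Ndufs5 (−0.73), Ndufb2, an accessory subunit of complex I (−0.26), and Cox6b2, known from testis (−0.26). Ndufs5 had 10.7 and 10.1 FPKM in WT and 9.69 and 3.39 in the mutant, so most of its difference lay in set 1. The groups did not overlap for 4 members, Cox8b and Atp5f1 higher and Ndufs5 and Ndufa4l2 lower, which is 4.88% of members against 18.9% of all genes. Ndufa4l2, a hypoxia-responsive relative of the complex IV subunit Ndufa4, had 7.97 and 10.1 FPKM in WT and 7.16 and 7.57 in the mutant. Atp5f1, the b subunit of the ATP synthase stalk, had 65.8 and 69.9 FPKM in WT and 79.1 and 74.7 in the mutant. Without 1 library the median member difference ran from −0.17 (WT of set 0 left out) to 0.28 (WT of set 1 left out), and with the block as well from 0.0069 to 0.10. With a term for sex beside the block it was −0.072. Sex is estimated there from the 1 male transgenic library alone.

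In HA-NRG1 type III/+ against WT the sets disagreed in direction. The comparison was male against female in set 0 and female against female in set 1, so set and sex cannot be told apart here. The median member difference was 0.053 in set 0, with 54 of 82 above 0, and −0.126 in set 1, with 10 of 82 above 0, for a mean-based median of −0.033 beside −0.0077 over all genes. Higher in both sets were 6 members (7.32%), against 28.7% of all genes, and lower in both were 24 (29.3%), against 33.3%. Complex II was the exception in set 1, with all 4 genes above 0 and a median of 0.039. Sdhb, the iron-sulphur subunit, had 64.4 and 86.3 FPKM in WT and 75.3 and 91.9 in transgenic nerve, with overlapping groups and a log2 difference of 0.16 ± 0.23 (SE, limma adjusted p = 1). Calls numbered 0 of 82, against 0.0638% of all genes, or 2.11% with the block, and no member had an unadjusted p under 0.05, against 6.9% of genes. With the block, 10 members (12.2%) had one, 1 higher and 9 lower, against 17.5% of genes. Without 1 library the median ran from −0.26 (WT of set 0 left out) to 0.21 (WT of set 1 left out).

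The highest members of this comparison were Cox7a1 (0.21), Sdhb and Ndufa4 (0.15), and the lowest were Cox6a2 (−0.40), Ndufs5 (−0.29) and Atp5k, the small e subunit of complex V (−0.24). Ndufs5 had 10.7 and 10.1 FPKM in WT and 11.3 and 6.02 in transgenic nerve, so it was lower in set 1 alone. Groups did not overlap for 3 members, all lower with the transgene (3.66% against 30.5% of genes): Cox6a2, Ndufa4l2 and Ndufv1. Cox6a2 was near the floor here, at 0.649 and 0.358 FPKM in WT and 0.0554 and 0.219 in transgenic nerve. Ndufv1 had 47.6 and 50.9 FPKM in WT and 43.5 and 46.1 in transgenic nerve, a log2 difference of −0.13 ± 0.092 (SE, limma adjusted p = 0.988). Atp5k had 337 and 449 FPKM in WT and 278 and 388 in transgenic nerve, lower within each set, with overlapping groups.

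In the double against Q215X/+, the transgene on the mutant background, most members stood lower. The median member difference was −0.078 (−0.049 in set 0 and −0.133 in set 1) beside −0.0085 over all genes, and 15 of 82 members were above 0. Lower in both sets were 53 members (64.6%), against 33.2% of all genes, and higher in both were 4 (4.88%), against 28.5%. The comparison shares the Q215X/+ libraries with the preceding comparison of that genotype with WT, so a low or high value in them enters both with opposite sign. Complex IV had the lowest median at −0.144, complex III −0.088 with none of its 8 genes above 0, complex I −0.073 and complex V −0.061, while complex II had 0.025 with 3 of 4 genes above 0. Without 1 library the median ran from −0.33 (Q215X/+ of set 0 left out) to 0.12 (Q215X/+ of set 1 left out), and with the block as well from −0.13 to −0.061. With the block and a term for sex it was 0.044. Marker sums in sets 0 and 1 were 12.2 and 16.6 FPKM in the double against 8.88 and 1242 in Q215X/+ for skeletal muscle, 4.19 and 4.03 against 14.8 and 3.01 for brown adipocytes, and 73.3 and 178 against 599 and 1279 for red blood cells. Their part in the members' difference was not tested.

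**Figure D3:**
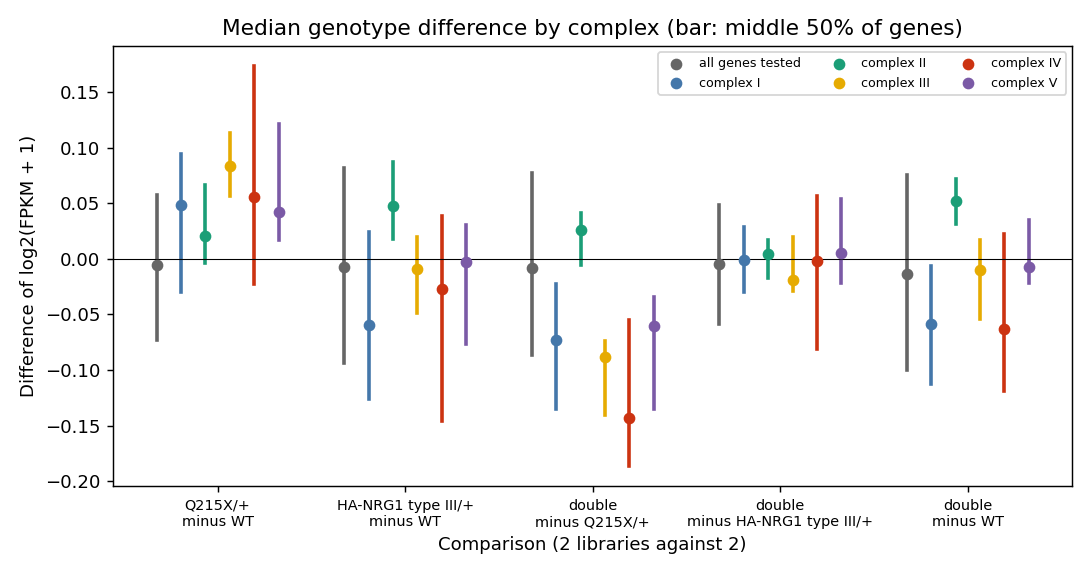
Median difference of log2(FPKM + 1) by complex in 5 comparisons (points), with the middle 50% of genes as bars; grey is all genes tested. In the double against Q215X/+, 4 complexes lie below 0, complex IV lowest at −0.144, and complex II lies at 0.025.

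No member was called in the double against Q215X/+ without the block (background 0.0399%), and 1 had an unadjusted p under 0.05, against 6.58% of all genes. With the block, 9 members (11%), all lower, had one, against 15.7%. The member with such a p in both fits was Cox8b, with 17.8 and 21.8 FPKM in the mutant and 3.35 and 8.34 in the double. Both double libraries stood below both Q215X/+ libraries, and the log2 difference was −1.70 ± 0.46 (SE, limma adjusted p = 0.415). With the block its SE was 0.25 and the adjusted p 0.0407, 1 call among 82 members against 1.72% of all genes. Leaving out any 1 of the 8 libraries ended this call (adjusted p 0.0651 to 0.351 with the block), as did a term for sex (adjusted p = 0.563). Groups did not overlap for 4 members (4.88%, against 29.9% of genes): Cox8b, Atp5b and Ndufa10 were lower and Atp5s higher. Atp5b had 399 and 457 FPKM in the mutant and 374 and 397 in the double, a log2 difference of −0.15 ± 0.13 (SE, limma adjusted p = 1). Ndufa10 is an accessory subunit of complex I named after its values were seen. It had 44.33 and 48.5 FPKM in the mutant and 44.32 and 43.6 in the double. The groups of Ndufa10 were thus barely apart, as were those of Atp5b.

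Cox6a2 (−1.51) and Cox7a1 (−0.23) were the next lowest after Cox8b in the double against Q215X/+. Cox7a1 had 47.7 and 81.8 FPKM in the mutant and 42.8 and 65.6 in the double, lower within each set and overlapping across sets. The highest were Atp5s (0.16), Ndufa4l2 (0.15) and Cox6b2 (0.13). Atp5s had 5.74 and 6.43 FPKM in the mutant and 6.58 and 7.22 in the double.

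**Figure D4:**
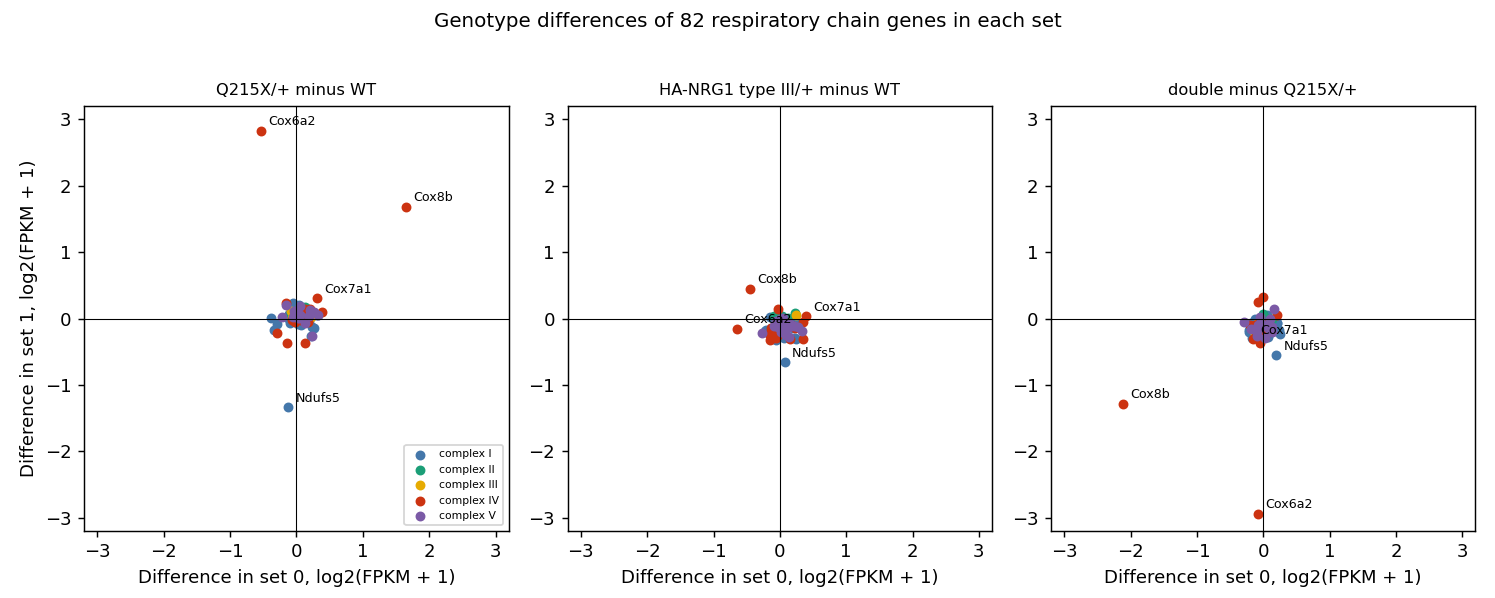
Genotype difference of log2(FPKM + 1) in set 0 (x) and set 1 (y) for each of the 82 members, coloured by complex, in 3 comparisons. Most members lie near 0, Cox8b is high in both sets of Q215X/+ against WT (1.66 and 1.69) and low in both sets of the double against Q215X/+ (−2.12 and −1.29), and Cox6a2 differs in set 1.

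In the double against HA-NRG1 type III/+, the Q215X allele on the transgenic background, members were centred on 0. The median was 0.00087 (−0.012 in set 0 and 0.037 in set 1) beside −0.0051 over all genes, with 41 of 82 above 0. Higher in both sets were 21 members (25.6%), against 24.3% of genes, and lower in both were 18 (22%), against 29%. Neither fit called a member (background 0% in both), none had an unadjusted p under 0.05 (1.28% of genes, or 4.53% with the block, where members again had none; the median ran from −0.18 to 0.17 without the double library of set 1 or of set 0), and none had groups that did not overlap (19.2%). Ndufs5 was lowest at −0.62 (−0.0062 in set 0 and −1.23 in set 1), followed by Cox6b2 (−0.18) and Cox7a1 (−0.14). The highest were the accessory complex I subunits Ndufb10 (0.15) and Ndufc2 (0.14), with Ndufa4l2 (0.13).

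The double against WT gave a median of −0.023 (0.044 in set 0 and −0.103 in set 1) beside −0.013 over all genes, with 30 of 82 members above 0. Higher in both sets were 14 members (17.1%), against 28.4%, and lower in both were 27 (32.9%), against 35%. Complex II had all 4 genes above 0, with a median of 0.052, whereas complex I had 8 of 35 above 0 and −0.059. Again none of the 82 was called (0.112% of genes, or 2.39% with the block) and none had an unadjusted p under 0.05 (7.29%). In the fit with the block, 7 members (8.54%), all lower, had one, against 17.9%. Without 1 library the median ran from −0.28 (WT of set 0 left out) to 0.20 (WT of set 1 left out). Ndufs5 (−0.91), Cox6a2 (−0.36) and Atp5k (−0.26) were lowest, and Atp5s (0.14) and Ndufa11, an accessory subunit of complex I (0.13), were highest. Ndufs5 had 11.2 and 1.98 FPKM in the double and 10.7 and 10.1 in WT, so it was lower in set 1 alone. Atp5k had 337 and 449 FPKM in WT and 256 and 410 in the double, lower within each set. Groups did not overlap for 2 members (2.44% against 31.1% of genes), Cox6a2 and Ndufv1, both lower in the double. Cox6a2 was near the floor, at 0.0777 and 0.259 FPKM in the double and 0.649 and 0.358 in WT. Ndufv1 had 43.6 and 47.2 FPKM in the double.

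Over both backgrounds together, the transgene went with a median member difference of −0.050 (0.026 in set 0 and −0.132 in set 1) beside −0.0087 over all genes, and 14 of 82 members were above 0. Without the block no member was called, against 0.99% of genes, and 1 had an unadjusted p under 0.05, against 11.2%. With the block, 14 members (17.1%), all lower, had one, against 23.3%. Without 1 library the median ran from −0.17 (WT of set 0 left out) to 0.051 (WT of set 1 left out). Axonal markers summed to between 6.57 and 11.97 FPKM in the 4 libraries with the transgene and to 15.7 or more in the 4 without, and macrophage markers to 95.8 to 112 and 73.6 to 94.2. Neither pair of sums overlapped, and each axonal marker was lower in every library with the transgene than in any without. Of the macrophage markers, Cx3cr1 and Trem2 were higher in every library with the transgene, while Cd68, Emr1, Csf1r and Aif1 overlapped. The part of these cells in the members' difference was not tested. With the block, Cox8b was called at −0.85 ± 0.18 (SE, limma adjusted p = 0.0440), against 7.1% of all genes, and leaving out any 1 library ended that call too (adjusted p 0.0610 to 0.188). The lowest members were Cox6a2 (−0.96), Cox8b and Ndufs5 (−0.24), and the highest Atp5s (0.12), Cox6b2 (0.096) and Ndufa11 (0.074). Ndufs5 was lower with the transgene in set 1 alone.

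The interaction, the transgene difference on the mutant background minus that on the WT background, had a member median of −0.051 beside 0.00076 over all genes. No member was called, against 0.00798% of genes in both fits, and 1 had an unadjusted p under 0.05, against 1.11%. With the block, 5 members (6.1%) had one, 1 higher and 4 lower, against 4.78%. Without 1 library the median ran from −0.29 (WT of set 1 left out) to 0.16 (Q215X/+ of set 1 left out), and with the block and a term for sex it was 0.118. Cox8b had such a p in both fits, at −1.70 ± 0.65 (SE, limma adjusted p = 1, and 0.965 with the block). Its transgene difference was −0.0020 on the WT background and −1.70 on the mutant background, and the difference between these was not called. Cox6a2 (−1.11) and Cox7a1 (−0.45) followed, and Ndufa4l2 (0.38), Ndufb2 (0.23) and Cox7a2l, a factor that joins complexes III and IV (0.23), were highest.

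Cox8b was thus the only member called with the block over all 8 libraries, and its high levels lay in the Q215X/+ libraries alone. It was not called in Q215X/+ against WT with or without the block. Leaving out any library ended its calls in the other comparisons. Both Q215X/+ libraries were male and no other genotype had a male pair, so sex and genotype cannot be told apart here. Cox8b lies at chr7:140898945-140900446 (GRCm38, minus strand). In transgenic nerve it had 3.35 and 8.68 FPKM, near the 3.35 and 8.34 of the double and the 4.97 and 6.08 of WT, so 6 libraries lay between 3.35 and 8.68 and the Q215X/+ libraries at 17.8 and 21.8. As a share of Cox8a plus Cox8b FPKM, Cox8b made up 4.43% and 4.10% in the mutant and 0.834% to 1.70% elsewhere. Cox8a itself had 390 and 529 FPKM in WT, 384 and 509 in the mutant, 398 and 525 in transgenic nerve and 369.8 and 483 in the double, with a log2 difference of −0.038 ± 0.25 (SE, limma adjusted p = 1) in Q215X/+ against WT.

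The brown adipocyte markers Ucp1 and Cidea stood out in 1 Q215X/+ library, skeletal muscle markers in the other, and the sum of red blood cell markers in both. In Q215X/+ set 0, Ucp1, the uncoupling protein of brown fat, was at 3.83 FPKM and Cidea, a lipid droplet protein of brown fat, at 6.86, against at most 0.0632 and 0.276 in the other 7 libraries. The 5 brown adipocyte markers summed to 14.8 FPKM there and to 3.01 to 4.80 in the others, and Elovl3 was at 0.0683 FPKM. Of the same list, Ppara was little higher there, at 3.23 FPKM against 2.37 to 3.02 elsewhere. Dio2 did not follow, at 0.815 FPKM within a range of 0.376 to 1.86 over the libraries. In Q215X/+ set 1, where Ucp1 was listed at 0, all 12 skeletal muscle markers were at their highest and summed to 1242 FPKM, against 8.88 (Q215X/+ set 0) to 101 (WT set 0) elsewhere. Red blood cell markers summed to 599 and 1279 FPKM in the mutant and 49.1 to 244 elsewhere, and white adipocyte markers to 466 and 1408 in the mutant and 640 to 1021 elsewhere. The part of these tissues in the Cox8b result and in the group differences above was not tested.

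**Figure D5:**
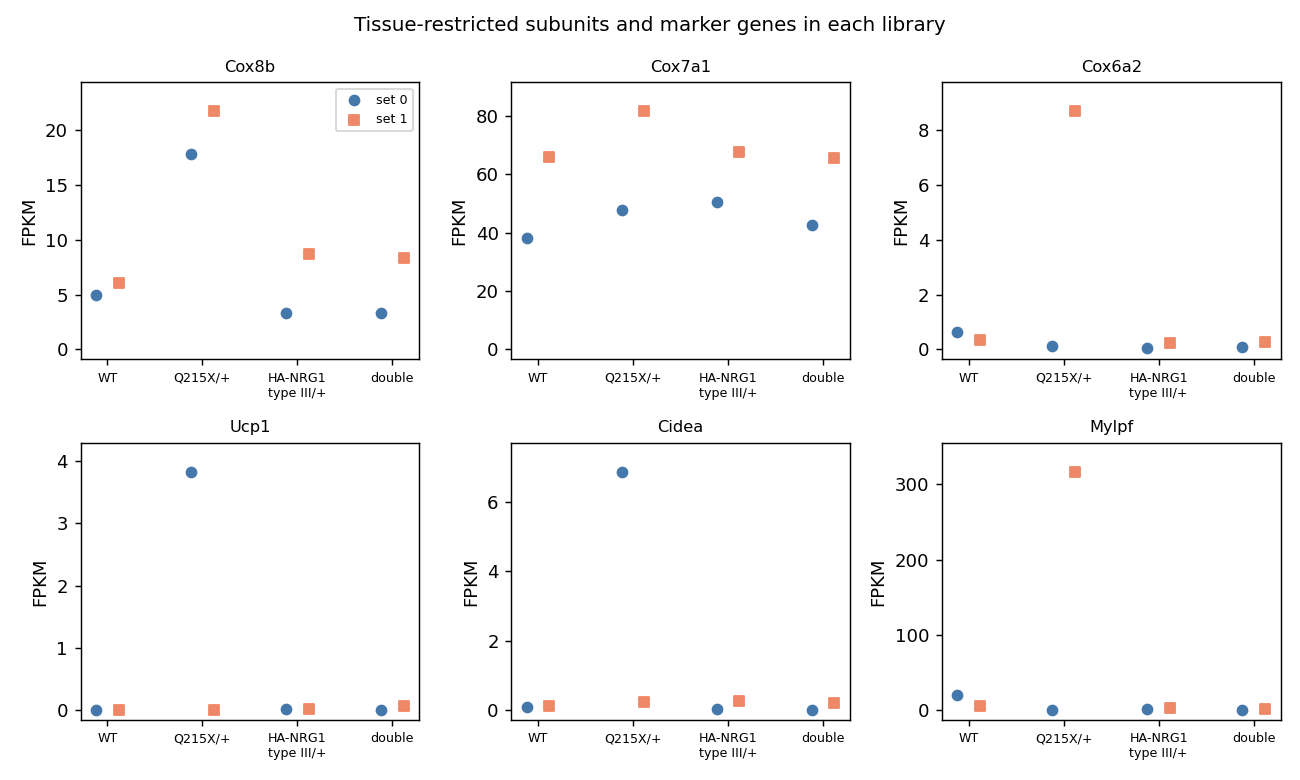
FPKM of 3 tissue-restricted complex IV subunits (top) and of the brown adipocyte markers Ucp1 and Cidea and the muscle marker Mylpf (bottom) in each library, circles for set 0 and squares for set 1. Cox8b is high in both Q215X/+ libraries, Ucp1 and Cidea in the set 0 one, and Cox6a2 and Mylpf in the set 1 one.

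Cox6a2, the heart and skeletal muscle form of subunit 6a (chr7:128205435-128206387, minus strand), followed the muscle markers by library. It was at 8.68 FPKM in Q215X/+ set 1, where Mylpf, a myosin light chain of fast muscle, was at 317 FPKM, and next highest at 0.649 in WT set 0, where Mylpf was next highest at 19.9. In the other 6 libraries Cox6a2 was at 0.0554 to 0.358 FPKM and Mylpf at 0.668 to 5.52. Because the set 1 library also brought Cox6a2 above the level limit, no test of its differences from Q215X/+ is drawn on. Without that library its difference of Q215X/+ from WT was −0.39 in place of 1.15.

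None of the other tissue-restricted forms was called in any comparison, with or without the block. Cox7a1, also of heart, muscle and brown fat, made up 30.1% to 37.7% of Cox7a1 plus Cox7a2 FPKM, with the highest share in Q215X/+ set 1 and every set 1 share above the set 0 share of its genotype. Cox4i2, the oxygen-responsive form known from lung, was 0.238% to 0.435% of its pair with Cox4i1, and Cox6b2 was 1.98% to 3.10% of its pair with Cox6b1, lowest in the Q215X/+ libraries. Ndufa4l2 was 2.46% to 4.50% of its pair with Ndufa4. The widely expressed partners Cox4i1, Cox6a1 and Cox6b1 had means of 419, 427 and 307 FPKM, with Cox7a2 at 112.

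Other genes of mitochondrial energy metabolism were taken from lists by function, and none of the 180 tested was called without the block. The 20 genes of pyruvate entry and the citric acid cycle had a median of 0.081 in Q215X/+ against WT, with 19 of 20 above 0, and −0.029 in the double against Q215X/+, with 5 of 20 above 0. The 76 mitochondrial ribosomal protein genes had 0.051 (58 of 76 above 0) and −0.054 (22 of 76). The 19 genes of glycolysis and lactate had 0.080 (14 of 19) and −0.059 (7 of 19), the 42 assembly factors 0.035 (28 of 42) and −0.035 (15 of 42), and the 8 genes of electron carriers and exchange 0.057 (7 of 8) and −0.0034 (4 of 8). The 15 regulators of mitochondrial content had −0.057 (6 of 15) and 0.0052 (9 of 15). For comparison, all genes tested had −0.0055 and −0.0085. Both comparisons use the Q215X/+ libraries, so a high or low value in them enters the 2 with opposite sign. In the double against WT, which leaves those libraries out, the medians of the lists in the same order were 0.025, 0.0038, −0.0037, 0.035, 0.043 and −0.019. All genes tested had −0.013 there. No row of the deposited table had a symbol beginning with mt-Nd, mt-Co, mt-Cy or mt-At, so subunits encoded by mitochondrial DNA could not be described under those symbols.

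With the block, 2 of the 180 genes in these lists were called, both lower with the transgene, which is below the share of all genes called in that fit (7.1% for the transgene over both backgrounds). Mrps12, a protein of the small mitochondrial ribosomal subunit, had 51.3 and 61.5 FPKM in WT, 48.5 and 63.0 in the mutant, 41.5 and 46.8 in transgenic nerve and 38.9 and 44.6 in the double. Each library with the transgene lay below each library without it. The transgene difference over both backgrounds was −0.37 (limma adjusted p = 0.268, and 0.00944 with the block), and it was called with the block in the double against Q215X/+ (−0.40, adjusted p = 0.0454) and against WT (−0.42, adjusted p = 0.0350).
Tpi1, the glycolytic triosephosphate isomerase, had 124 and 155 FPKM in WT, 136 and 178 in the mutant, 115 and 143 in transgenic nerve and 119.95 and 143 in the double. It was lower with the transgene within each set, by −0.18 over both backgrounds (limma adjusted p = 0.794, and 0.0490 with the block).
Esrra, a nuclear receptor that drives respiratory chain genes, had 18.2 and 15.1 FPKM in WT, 15.8 and 19.6 in the mutant, 14.3 and 13.7 in transgenic nerve and 14.3 and 13.9 in the double. All 4 libraries with the transgene were below the other 4, at −0.27 (limma adjusted p = 0.325, and 0.131 with the block), so it was not called.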

How the data were processed

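The deposited table holds 1 FPKM value per gene and library, computed by the authors. Per the submitters' processing notes, TopHat2 2.0.9, Cufflinks 2.2.0 and build mm10 were used, with no roles stated. The annotation and strand handling are not stated in those sources. Overlapping genes on opposite strands may therefore share reads. Examples are Shmt2 at Ndufa4l2 and Eef1b2, with a mean of 93.6 FPKM, at Ndufs1, with 30.3. FPKM gives no counts, so no counting interval is given. Values were analysed as log2(FPKM + 1) with limma 3.58.1 in R 4.3.3 (4 group means, 4 residual degrees of freedom, eBayes trend) over all 12530 genes that averaged 1 FPKM or more, after a test on simulated data. A log2 difference understates changes of low genes. Transcript lengths are medians per gene from GENCODE. The main fit has no term for the set. The set endings were treated as paired only in the within-set differences and in the fits with the block. This pairing was read from the data: the set difference correlated across genes at 0.118 to 0.304 in all 6 pairs of genotypes. Alternatives were the replicate block (3 residual degrees of freedom), a term for sex, a pseudocount of 0.1, no filter, other scalings, single sets and leaving out each library. Named members were the tissue-restricted isoforms with their partners, a core subunit or more per complex, called members, the 3 highest and 3 lowest of each comparison, and the extremes of level. Members and lists were chosen with earlier results of these data known. Results for some genes are not reported here.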

Additional observations from a re-analysis of the deposited data

How the results depend on the processing

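With the set as a replicate block, the count of called members went from 0 to 1 in the double against Q215X/+ and in the transgene over both backgrounds (Cox8b in both), and stayed at 0 in the other 5 comparisons. Without 1 library, with or without the block, the count ran from 0 to 1 in Q215X/+ against WT, in the double against Q215X/+ and over both backgrounds. The 1 was Cox6a2 without the Q215X/+ library of set 0, which leaves the genotype its set 1 library alone, assumed to vary like the other groups. That library also brought Cox6a2 above the level limit, so this call is not drawn on. The leave-one-out with the block was added after seeing the data. Medians of members could change sign. In Q215X/+ against WT the median ran from −0.17 to 0.28 without 1 library, where the sets become unbalanced, and from 0.0069 to 0.10 with the block as well. In the double against Q215X/+ it ran from −0.33 to 0.12, and from −0.13 to −0.061 with the block. A term for sex with the block turned both. Rescaling without short RNA genes gave 0.097 and −0.042, and turned HA-NRG1 type III/+ against WT to 0.0048 and the double against WT to 0.062.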
